A study of Mus musculus with 15 samples.

Results

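Genes of neutrophils and of the chemokine axis that recruits them were followed in 4 syngeneic mouse glioblastoma models and in naïve brain. The 10 genes were chosen by name: the calprotectin subunits S100a8 and S100a9, the granule collagenase Mmp8, the surface marker Ly6g, the resistin-like gene Retnlg, the receptors Csf3r and Cxcr2, and the CXCR2 ligands Cxcl1, Cxcl2 and Cxcl5. Each symbol matched 1 Ensembl identifier, so 10 of the 46679 genes in the tables were studied, and 8 of them were among the 17481 genes that passed the low count filter. Mmp8 and Ly6g did not pass and are given as counts.

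RNA was sequenced from whole tissue of 5 groups of 3 mice, all C57BL/6 and 6 to 8 weeks old at implantation. CT2A and GL261 came from chemically induced gliomas, CT2A with wild-type p53 and GL261 carrying mutations of K-ras and p53. The 005 line was driven by H-ras and AKT in a p53+/- background, and Mut3 by inactivation of NF1 and p53. Tumors grew in the right hemisphere from 100000 implanted cells of CT2A, GL261 or 005, or from 500000 cells of Mut3, so the number of cells and the Mut3 line cannot be told apart. The study marked its lines with GFP and firefly luciferase. Each model is 1 line, and tumors were taken at the humane endpoint after perfusion with 30 ml of PBS, while the naïve brain samples had received no tumor cells.

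Neutrophils are short-lived granulocytes that mature in bone marrow under G-CSF, whose receptor is Csf3r. They leave the marrow and enter inflamed tissue along gradients of the ELR chemokines, which include the products of Cxcl1, Cxcl2 and Cxcl5 and which signal through Cxcr2. Primary and secondary granule genes are transcribed in marrow precursors, whereas S100a8, S100a9, Retnlg and Csf3r are still transcribed in mature cells. Several of these genes have other sources in brain: monocytes also transcribe S100a8, S100a9 and Csf3r, and Cxcr2 is known in oligodendrocyte progenitors and other brain cells. In bulk tissue, fewer cells of a type and less RNA per cell cannot be told apart.

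The deposited expected counts summed to between 3105119 and 13130158 per library, lowest in naïve brain. Levels are given here as CPM, counts divided by the TMM-scaled library size, and 3 counts, taken as the detection floor, were worth 0.214 to 0.811 CPM depending on the library. Neuron markers summed to 3060 to 5418 CPM in the naïve brains, above every tumor library. One tumor library stood apart. The third 005 replicate differed from the other 005 libraries by a chi-square per degree of freedom of 242 and 253, against 12.7 to 58.4 between all other pairs of replicates of a group, and its neuron markers summed to 2880 CPM where the lowest 005 library had 139 CPM. Called changes in 005 over naïve brain are therefore also given without it. Genes were called by edgeR's quasi-likelihood test over all libraries where the log2 fold change was 1 or more in size and the adjusted p (Benjamini-Hochberg) was below 0.05. The 4 tumors share the naïve brain samples as their control, so their changes over it are not independent of each other.

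Retnlg encodes a secreted resistin-like protein of neutrophils and lies at chr16:48872621-48874496 (GRCm38, plus strand; ENSMUSG00000022651). It was at 0.204, 0 and 0.270 CPM in naïve brain and at 6.70, 21.1 and 13.7 CPM in 005 tumors. In GL261 tumors it was at 2.28, 2.91 and 2.55 CPM, in CT2A at 0.611, 1.55 and 1.16 CPM, and in Mut3 at 0.112, 1.64 and 0.176 CPM. All 005 libraries lay above all GL261 libraries, which in turn lay above every CT2A library, while CT2A overlapped Mut3 and Mut3 overlapped naïve brain.

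Retnlg rose over naïve brain in 005 (log2 fold change 6.31 ± 1.03 SE, edgeR adjusted p = 0.00204) and in GL261 (3.89 ± 1.05, adjusted p = 0.0182). In CT2A the difference was 2.67 ± 1.10 (adjusted p = 0.0624) and in Mut3 1.85 ± 1.14 (adjusted p = 0.207), neither past the threshold. Because naïve brain held only 2 Retnlg counts in all, the pooled rates are the safer measure of size: 005 was at 85.0 times the rate of naïve brain (95% exact interval 23.4 to 704) and GL261 at 16.4 times (4.30 to 139), intervals that cover counting error only. The GL261 call was lost without the first or the second naïve brain replicate (adjusted p up to 0.0569). Without the third 005 replicate the call in 005 held at 6.24 (adjusted p = 0.00066).

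S100a8 (chr3:90668978-90670035, plus strand; ENSMUSG00000056054) encodes 1 chain of calprotectin, the abundant cytosolic protein of neutrophils. In naïve brain it was at 2.45, 2.74 and 1.35 CPM, and in 005 tumors at 5.67, 20.5 and 27.2 CPM. CT2A libraries were at 2.44, 2.48 and 6.85 CPM, GL261 at 5.18, 3.88 and 4.61 CPM, and Mut3 at 1.68, 3.52 and 2.11 CPM. The 005 tumors lay above GL261, Mut3 and naïve brain, and the lowest 005 library fell below the highest CT2A library. S100a8 rose in 005 (3.01 ± 0.62, edgeR adjusted p = 0.00598) and did not pass in GL261 (1.05 ± 0.61, adjusted p = 0.205), CT2A (0.84 ± 0.60, adjusted p = 0.276) or Mut3 (0.15 ± 0.61, adjusted p = 0.866). Without the third 005 replicate the change in 005 was 2.50 (adjusted p = 0.00678), and it missed the threshold when only 005 and naïve brain were fitted (3.08, edgeR adjusted p = 0.0612).

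S100a9 (chr3:90692632-90695721, minus strand; ENSMUSG00000056071) encodes the partner chain and lies next to S100a8. Its 005 libraries spread from 0.515 through 2.41 to 12.2 CPM, the highest being the library that stood apart, and the group overlapped all others. Naïve brain lay between 0.498 and 1.62 CPM, GL261 between 1.82 and 2.26 CPM, CT2A between 1.34 and 2.84 CPM and Mut3 between 0.112 and 2.39 CPM. The difference of 005 from naïve brain was 2.48 ± 1.05 and missed the threshold (edgeR adjusted p = 0.126), and without the third 005 replicate it was 0.62 (adjusted p = 0.651). Although both chains form 1 complex, their ratio varied: per unit of length (TPM), S100a8 over S100a9 was 9.71 and 7.52 in the first 2 replicates of 005 and 1.99 in the third, and between 1.22 and 2.45 in all libraries of CT2A and GL261. It was 13.01, 1.31 and 1.98 in Mut3 and 4.04, 4.97 and 0.82 in naïve brain, so high ratios were not particular to 005. The first Mut3 library had S100a9 at 0.112 CPM, under its floor of 0.336 CPM. Ratios over so few S100a9 counts are imprecise.

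Ly6g (chr15:75155240-75159126, plus strand; ENSMUSG00000022582) encodes the antigen by which mouse neutrophils are usually gated, and it was scarce everywhere. Its expected counts were 7.4, 3.0 and 10.6 in GL261, 2.1, 19.05 and 5.9 in 005, 7.6, 0 and 1.0 in CT2A, and 1.2, 0 and 0 in naïve brain. Mut3 had 0 counts in all 3 libraries, which allows up to 0.264 to 0.378 CPM per library. Set against an allowance of 3 counts over the whole Mut3 group, the observed rate of Ly6g was 10.3-fold higher in GL261 and 7.94-fold higher in 005. These values allow for no error in the GL261 and 005 counts, so they are not lower limits. With no filter on low counts, edgeR gave Ly6g an adjusted p of 0.0199 for both of these comparisons.

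Mmp8 (chr9:7558456-7568485, plus strand; ENSMUSG00000005800), a collagenase of secondary granules, had another pattern. Its expected counts were 12.9, 5.8 and 9.8 in CT2A and 5.5, 12.6 and 11.6 in Mut3, but 0, 1.0 and 4.9 in GL261, 2.0, 3.9 and 7.9 in 005, and 1.0 in each naïve brain. In CPM, CT2A (0.932 to 1.59) and Mut3 (0.671 to 1.64) lay above every 005, GL261 and naïve brain library, although without the filter its adjusted p was 0.149 for CT2A and 0.189 for Mut3 against naïve brain.

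**Figure D1:**
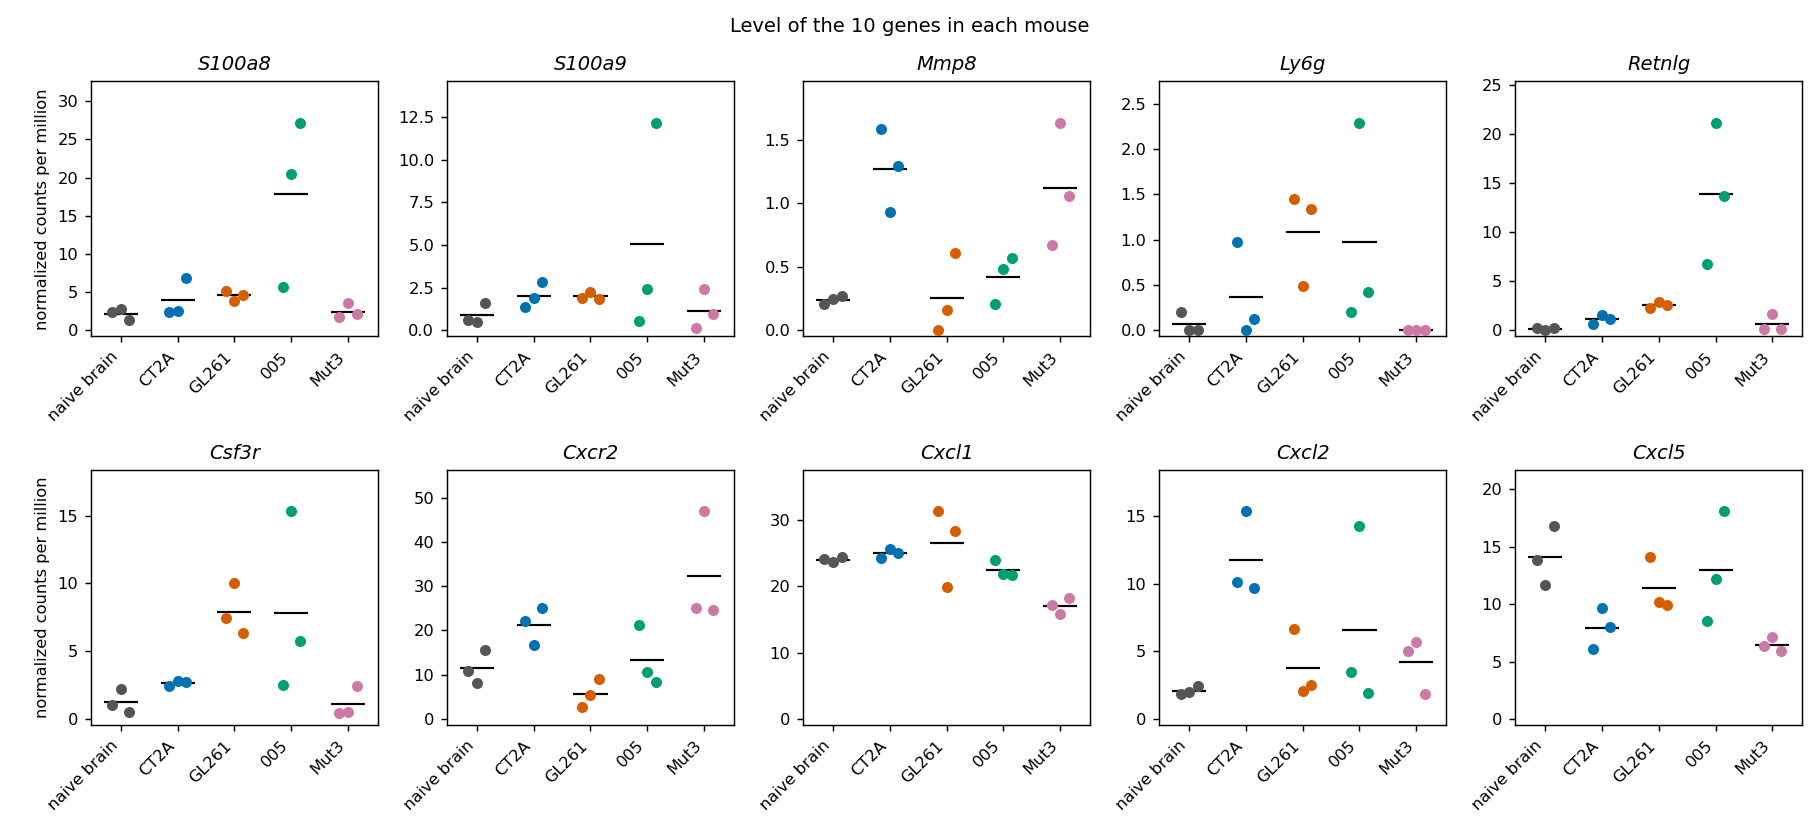
Normalized CPM of each of the 10 genes (y axis, linear and separate for each gene) in the 3 mice of each group (x axis), with 1 point per mouse and a line at the group mean. S100a8 and Retnlg are highest in 005, Csf3r in GL261 and 005, Cxcr2 in Mut3 and lowest in GL261, and Cxcl2 is above naïve brain in every CT2A mouse, while Ly6g is at 0 in every Mut3 mouse.

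The receptors did not move together. Csf3r, the G-CSF receptor (chr4:126024550-126044440, plus strand; ENSMUSG00000028859), was at 1.02, 2.24 and 0.541 CPM in naïve brain, 7.46, 10.02 and 6.31 CPM in GL261, and 2.47, 15.3 and 5.77 CPM in 005. In CT2A it was at 2.44, 2.79 and 2.71 CPM and in Mut3 at 0.448, 0.503 and 2.46 CPM. GL261 lay above CT2A, naïve brain and Mut3 without overlap, and 005 had 1 library at the level of CT2A.

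Csf3r rose over naïve brain in GL261 (2.63 ± 0.78, edgeR adjusted p = 0.0272) and in 005 (2.61 ± 0.78, adjusted p = 0.0398). The 005 call was lost in 7 of the 15 fits that left out 1 library: without the second 005 replicate (log2 fold change 1.70, adjusted p = 0.236), and without the first or the third replicate of naïve brain or of CT2A, or the second or the third replicate of GL261. It held without the third 005 replicate (2.72, adjusted p = 0.0189), and was also lost with library size scaling alone, with a replicate block, with limma on TPM values and when only 005 and naïve brain were fitted. The GL261 call was lost without any 1 of the GL261 replicates and without the first or the third naïve brain replicate, with adjusted p values up to 0.0877. In CT2A the difference was 1.05 ± 0.78 and in Mut3 −0.12 ± 0.79, with adjusted p = 0.288 and 0.918 in the same edgeR test.

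Cxcr2 (chr1:74153989-74161246, plus strand; ENSMUSG00000026180), the receptor of the ELR chemokines, did not follow the granulocyte genes. It was at 25.2, 46.9 and 24.5 CPM in Mut3, 22.1, 16.8 and 25.1 CPM in CT2A, and 21.2, 10.6 and 8.33 CPM in 005. Naïve brain itself had 10.8, 8.22 and 15.7 CPM, and GL261 had 2.69, 5.33 and 9.10 CPM. Each neighbour in this order overlapped the next, and in CPM all libraries of CT2A and Mut3 lay above all of naïve brain and GL261.

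Cxcr2 rose over naïve brain in Mut3 (1.48 ± 0.47, edgeR adjusted p = 0.0228), a call lost without the first or second naïve brain replicate or the second Mut3 replicate, with adjusted p values up to 0.102. The values in CT2A (0.88 ± 0.47, adjusted p = 0.141), 005 (0.21 ± 0.47, adjusted p = 0.778) and GL261 (−0.997 ± 0.480, adjusted p = 0.134) did not pass. These values depend on the scaling. On log2(TPM + 0.1), Cxcr2 differed from naïve brain by −0.06 in CT2A, where the median of all tested genes was −0.77. In GL261 it was at −1.61 against a median of −0.69, and limma called it lower (adjusted p = 0.0134). The Mut3 call was lost with limma on log2(TPM + 1) and on log2(TPM + 0.1).

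Between tumors the receptors gave opposite orders. Csf3r was higher in GL261 than in Mut3 (2.75 ± 0.75, edgeR adjusted p = 0.0224) and Cxcr2 was lower (−2.47 ± 0.49, adjusted p = 0.00468). Within a library, Csf3r over Cxcr2 in TPM was 4.33, 2.92 and 1.09 in GL261 and 0.0296, 0.0170 and 0.158 in Mut3, and this ratio does not depend on the scaling between libraries. In 005 it was 0.185, 2.25 and 1.08, and in CT2A 0.165 to 0.260. Over the 15 libraries, which share the group differences, Pearson's r of log2 CPM was −0.66 between Csf3r and Cxcr2, 0.87 between S100a8 and Retnlg, and 0.69 between Retnlg and Csf3r.

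Relative to Ptprc, the pan-leukocyte gene CD45, Cxcr2 in TPM was at 1.86 to 17.2 times the Ptprc level in Mut3 and 2.04 to 7.04 times in naïve brain. It was at 0.376 to 0.949 of that level in CT2A, 0.0340 to 0.384 in 005 and 0.0264 to 0.162 in GL261. Ptprc itself was at 2.27 to 11.1 CPM in Mut3 and 37.7 to 85.6 CPM in GL261. High ratios in Mut3 and naïve brain were not particular to Cxcr2. Cxcl1 was at 4.27 to 18.01 times the Ptprc level in Mut3 and 14.05 to 36.86 times in naïve brain. In GL261 it was at 0.944 to 1.56 times. S100a8, Mmp8, Cxcl2 and Cxcl5 were also higher per Ptprc in every Mut3 library than in any GL261 library. S100a9, Retnlg and Csf3r overlapped between these groups, and Ly6g was 0 in Mut3. S100a8 in 005 (0.662 to 4.57) lay below naïve brain (4.75 to 13.29).

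Markers of oligodendrocyte progenitors, listed after the Cxcr2 values had been seen, were also examined. Their 6 genes summed to 318 to 688 CPM in Mut3, 155 to 200 CPM in GL261, 72.3 to 90.4 CPM in CT2A, 47.9 to 112 CPM in naïve brain and 33.8 to 91.0 CPM in 005. In Mut3, 4 of the 6 were called higher than naïve brain, where 17.9% of all genes were. Among them Gpr17, a receptor of committed progenitors, was at 4.06 ± 0.57 (edgeR adjusted p = 0.000336). In CT2A, where Cxcr2 in CPM was also above all naïve brains, Pdgfra and Cspg4 were called higher and the other 4 lower, Gpr17 at −2.74 ± 0.60 (adjusted p = 0.00381). The shares of all genes in CT2A were 19.0% higher and 20.2% lower. In GL261, where Cxcr2 was lowest, Sox10 and Olig2 were called higher, against 14.6% of all genes. The part of these cells, or of the tumor cells themselves, in the Cxcr2 values was not tested.

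**Figure D2:**
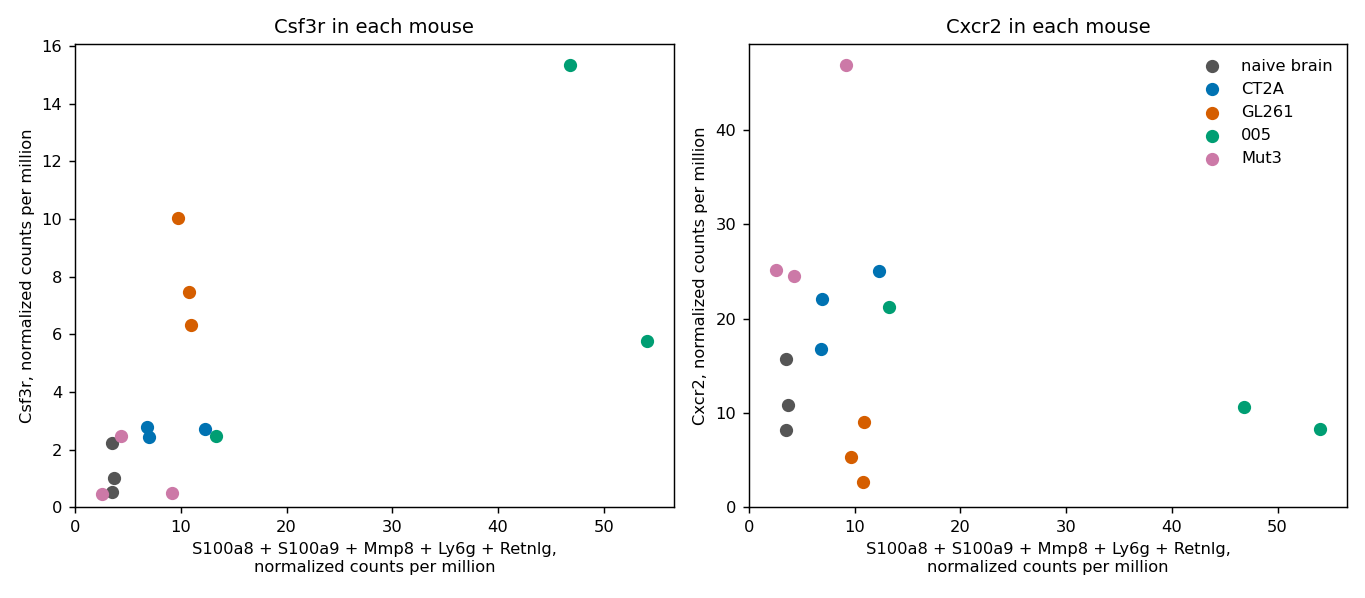
Csf3r (left) and Cxcr2 (right), in normalized CPM on the y axes, against the summed level of S100a8, S100a9, Mmp8, Ly6g and Retnlg on the x axis, with 1 point per mouse. The sum lay between 13.3 and 54.0 in 005 and between 2.57 and 9.19 in Mut3, where Cxcr2 was highest, and between 9.70 and 10.9 in GL261, where Cxcr2 was lowest.

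The 3 ligand genes lie in 1 cluster on chromosome 5. The stretches before the starts of Cxcl1 and Cxcl2 are printed because these genes share an element but not a pattern. They are RefSeq sequence (GRCm38.p6), in a table to which 9 of the 10 genes were matched, and the bases in capitals match the NF-kB consensus on both strands. The gene without a match was Cxcl5, so the stretch before this ligand was not searched.

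Cxcl1 (chr5:90890995-90891240, plus strand): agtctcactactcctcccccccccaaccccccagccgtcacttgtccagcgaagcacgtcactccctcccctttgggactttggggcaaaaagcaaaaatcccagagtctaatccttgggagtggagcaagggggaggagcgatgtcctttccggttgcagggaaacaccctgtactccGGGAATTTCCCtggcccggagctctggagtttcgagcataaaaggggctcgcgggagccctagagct
Cxcl2 (chr5:90903649-90903870, plus strand): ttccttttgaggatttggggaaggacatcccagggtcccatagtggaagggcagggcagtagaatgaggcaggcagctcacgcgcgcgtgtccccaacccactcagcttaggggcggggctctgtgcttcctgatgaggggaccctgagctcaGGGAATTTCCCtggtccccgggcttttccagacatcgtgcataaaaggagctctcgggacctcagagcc

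Both promoters hold the same run, which begins 71 bases before the RefSeq start of Cxcl1 and 97 bases before that of Cxcl2. Overlapping matches of the consensus on the plus and minus strand make it up. Of 32851 RefSeq promoters, 3.90% hold the consensus in the 250 bases before the start, and none of the other 7 matched genes does. A C/EBP motif, TTGCNNAA, was searched on the strand of the gene only. There it was found before S100a9 and Mmp8 and in 5.14% of all promoters. Matches on the opposite strand were not counted. A match is a description of the letters only.

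Cxcl1 (chr5:90891241-90893115, plus strand; ENSMUSG00000029380), a chemokine made by many stromal and glial cells, differed little between groups in CPM. Naïve brain lay between 23.7 and 24.3 CPM, CT2A between 24.3 and 25.6 CPM, 005 between 21.7 and 23.9 CPM, GL261 between 19.9 and 31.3 CPM and Mut3 between 15.9 and 18.3 CPM. Only Mut3 lay apart from the rest, below all other libraries, with a difference from naïve brain of −0.49 ± 0.24 that did not pass (edgeR adjusted p = 0.122). The other tumors differed from naïve brain by −0.10 to 0.14 in log2 with an SE of 0.24. These values depend on the scaling. On log2(TPM + 1), where the median of all tested genes itself fell by 0.23 to 0.38, Cxcl1 differed from naïve brain by −0.79 in CT2A, −0.60 in GL261 and 005 and −1.10 in Mut3, and limma called it lower in Mut3 (adjusted p = 0.00269). On log2(TPM + 0.1), where that median fell by 0.45 to 0.77, limma also called Cxcl1 lower in Mut3 (−1.28, adjusted p = 0.00287).

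Cxcl2 (chr5:90903871-90905938, plus strand; ENSMUSG00000058427), the MIP-2 chemokine of myeloid cells, was at 1.84, 1.99 and 2.43 CPM in naïve brain and at 10.1, 15.4 and 9.69 CPM in CT2A. In 005 it was at 3.50, 14.3 and 1.92 CPM, in GL261 at 6.63, 2.10 and 2.55 CPM, and in Mut3 at 5.03, 5.66 and 1.85 CPM. CT2A lay above naïve brain, GL261 and Mut3 without overlap, and 1 library of 005 reached its range.

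Cxcl2 rose in CT2A (2.49 ± 0.73, edgeR adjusted p = 0.0150), and without the first naïve brain replicate that call was lost at an adjusted p of 0.0509. The values in 005 (1.64 ± 0.72, adjusted p = 0.137), Mut3 (0.99 ± 0.72, adjusted p = 0.284) and GL261 (0.83 ± 0.73, adjusted p = 0.405) did not pass, but without the third 005 replicate Cxcl2 was called in 005 as well (2.01, adjusted p = 0.0274). Set against Cxcl1 in the same library, Cxcl2 in TPM was 0.0675, 0.0749 and 0.0886 of it in naïve brain and 0.385, 0.557 and 0.361 in CT2A.

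Cxcl5 (chr5:90759360-90761624, plus strand; ENSMUSG00000029371), the LIX chemokine, was the only gene of the 10 that edgeR called lower than naïve brain in any tumor. It was at 13.9, 11.7 and 16.8 CPM in naïve brain, 6.38, 7.17 and 5.89 CPM in Mut3, and 6.11, 9.63 and 8.01 CPM in CT2A. GL261 had 14.1, 10.2 and 9.95 CPM and 005 had 8.55, 12.2 and 18.1 CPM. Cxcl5 fell in Mut3 by 1.12 ± 0.35 in log2 (edgeR adjusted p = 0.0188), a call lost without the third replicate of naïve brain or of Mut3 with adjusted p values up to 0.0623 or a fold under the threshold. In CT2A the difference was −0.83 ± 0.34 (adjusted p = 0.0635). On log2(TPM + 0.1), limma also called Cxcl5 lower in CT2A (−1.61, adjusted p = 0.00415) and in GL261 (−1.03, adjusted p = 0.0457). There the medians of all tested genes were −0.77 and −0.69.

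**Figure D3:**
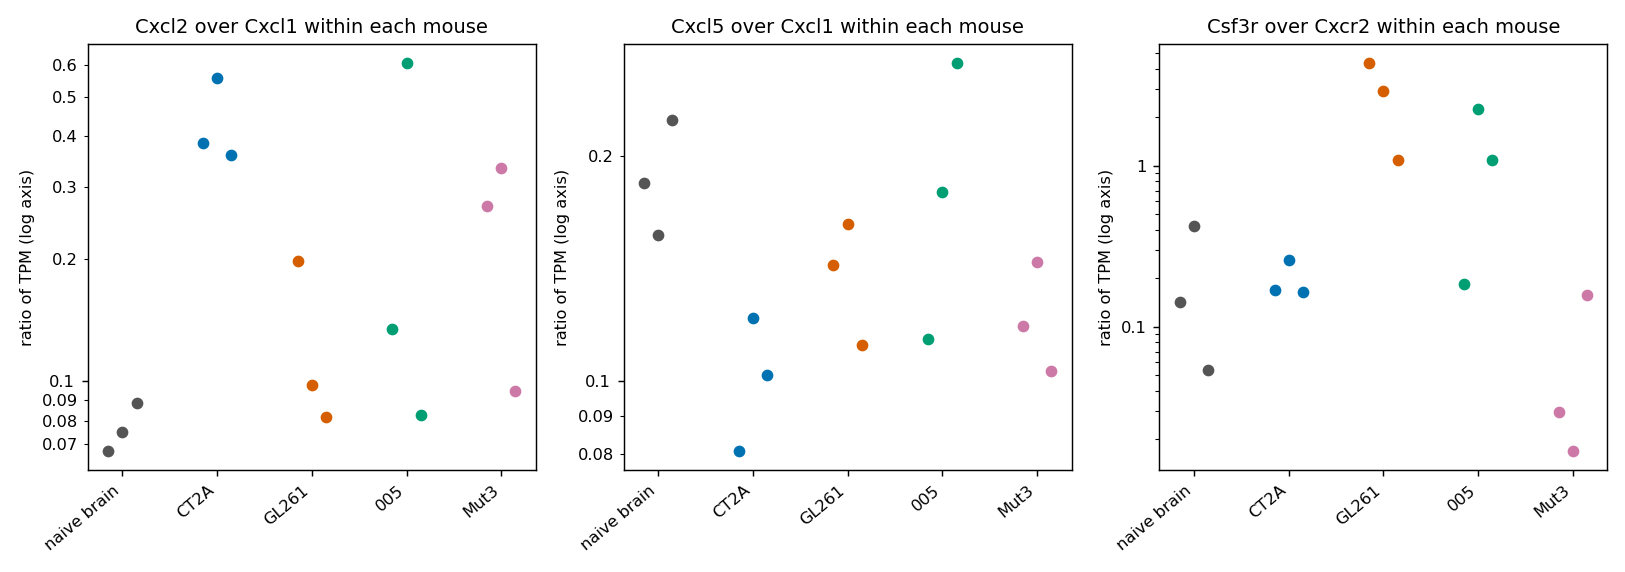
Ratio of TPM within each mouse (y axes, logarithmic) for Cxcl2 over Cxcl1, Cxcl5 over Cxcl1 and Csf3r over Cxcr2, by group (x axes), with 1 point per mouse. The 3 CT2A mice lie between 0.361 and 0.557 for Cxcl2 over Cxcl1 and naïve brain between 0.0675 and 0.0886, while Csf3r over Cxcr2 is above 1 in every GL261 mouse.

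By comparison, 1 of the 8 tested genes was called higher in CT2A (Cxcl2), where 19.0% of all tested genes were called higher and 20.2% lower. GL261 had 2 higher (Retnlg, Csf3r), against 14.6% of all genes higher and 7.77% lower. In 005, S100a8, Retnlg and Csf3r were higher, 3 of 8 where 11.6% of all genes were called higher and 1.05% lower. Mut3 had Cxcr2 higher and Cxcl5 lower, against 17.9% higher and 19.8% lower. Without the third 005 replicate, 17.6% of all genes were called higher in 005 and 18.1% lower, and 4 of the 10 genes were called higher, Cxcl2 being added. That fit also moved the share called lower in GL261 to 14.9%. The F test for any difference among the 5 groups passed for 5 of the 8 genes (Retnlg, S100a8, Cxcr2, Csf3r and Cxcl5, edgeR adjusted p from 0.000483 to 0.0490), near the 52.1% of all genes, and not for Cxcl2 (adjusted p = 0.0515), S100a9 (0.178) or Cxcl1 (0.202).

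**Figure D4:**
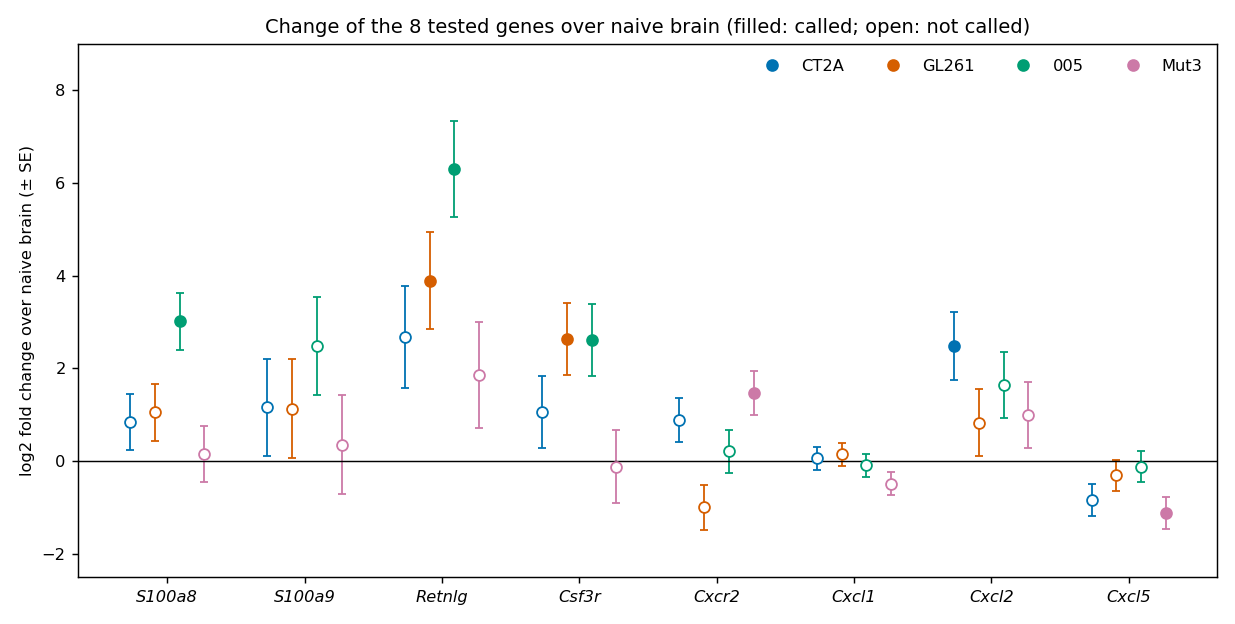
Log2 fold change over naïve brain with its standard error (y axis) for the 8 tested genes (x axis) in the 4 tumors (colors), with filled points for called changes and open points for the rest. Retnlg has the highest value in 005, at 6.31, the called changes of Csf3r are in GL261 and 005 and that of Cxcr2 is in Mut3, and the values of Cxcl1 lie between −0.49 and 0.14.

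Pairs of tumors were then compared directly. The comparison of 005 with Mut3 gave the most calls: S100a8 (2.87 ± 0.59, edgeR adjusted p = 0.00571), Retnlg (4.45 ± 0.83, adjusted p = 0.0033) and Csf3r (2.73 ± 0.74, adjusted p = 0.0198) were higher in 005, where 19.8% of all genes were called in either direction. The calls of S100a8 and Retnlg held whichever 1 library was left out, and that of Csf3r was lost without the second 005 or the first or second Mut3 replicate. Each of these calls was lost when only the 005 and Mut3 samples were fitted. GL261 against Mut3 gave the 2 receptors above, with 17.2% of all genes called. The Csf3r call there was lost without the second GL261 or the first or second Mut3 replicate (adjusted p up to 0.0821), and the Cxcr2 call held in all 15 fits. Against CT2A, 005 was higher in Retnlg and S100a8, the log2 difference of CT2A from 005 being −3.63 ± 0.79 (edgeR adjusted p = 0.0224) and −2.17 ± 0.58 (adjusted p = 0.0482), where 4.11% of all genes were called. The S100a8 call held in only 1 of the 15 fits that left out 1 library, and was −1.69 (adjusted p = 0.126) without the third 005 replicate. The Retnlg call was lost without any 1 of the CT2A replicates or the second 005 replicate, with adjusted p values up to 0.105.

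Between CT2A and GL261 the call was Cxcr2 (1.88 ± 0.48 higher in CT2A, edgeR adjusted p = 0.0273), against 7.77% of all genes, and this call was lost without any 1 of the CT2A replicates or without the first or second GL261 replicate. For CT2A against Mut3 edgeR called 0 of the 8, with 2 at an unadjusted p under 0.05, 0 called by DESeq2 and 12.8% of all genes called. For GL261 against 005 it also called 0, with 3 at an unadjusted p under 0.05, 2 called by DESeq2 and 2.62% of all genes called. The largest of these differences were Retnlg (−2.41 ± 0.74) and S100a8 (−1.96 ± 0.57), lower in GL261. They were −2.43 and −1.53 (edgeR adjusted p = 0.0926 and 0.153) without the third 005 replicate, with 5.86% of all genes called.

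GL261 and 005 together were compared with CT2A and Mut3, the split into immunologically active and inert models. The study drew that split from RNA sequencing of these same models, so the calls describe it and are not independent evidence for it. Retnlg (2.84 ± 0.56, edgeR adjusted p = 0.00453), Csf3r (2.15 ± 0.51, adjusted p = 0.0111) and S100a8 (1.54 ± 0.41, adjusted p = 0.0175) were higher in GL261 and 005, and Cxcr2 was lower (−1.57 ± 0.33, adjusted p = 0.0065). These were 4 of 8 genes, where 16.9% of all genes were called in either direction, and each kept its call whichever library was left out. Each class is 2 lines, and the SE and p treat mice as replicates, so they do not measure the spread between lines. Not every pair of lines differed. CT2A was −0.21 ± 0.57 from GL261 in S100a8 (adjusted p = 0.853) and 0.67 ± 0.46 from 005 in Cxcr2 (adjusted p = 0.37). The pairs that were called are given above. Cxcl5 was 0.76 ± 0.24 higher (adjusted p = 0.0371), under the fold threshold. Cxcl1 (0.24 ± 0.17) and Cxcl2 (−0.51 ± 0.47) did not pass.

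Granule genes that are transcribed in marrow precursors were mostly absent. Of a list of 13 granule and maturation genes, 3 passed the filter. Elane, encoding neutrophil elastase, had 0 counts in all libraries. Camp, Ltf and Ngp, genes of secondary granules, reached 193, 75.2 and 116 counts in the third 005 replicate, and at most 32.7, 16.4 and 8.0 counts in any other library. Mpo, the myeloperoxidase of primary granules, had 15.01 counts in that library and at most 2.1 in the others. The 7 genes Camp, Ltf, Ngp, Mpo, Elane, Prtn3 and Ctsg summed to 30.1 CPM there and to 0.616 to 6.88 CPM elsewhere. That library also held the highest S100a8 and S100a9.

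**Figure D5:**
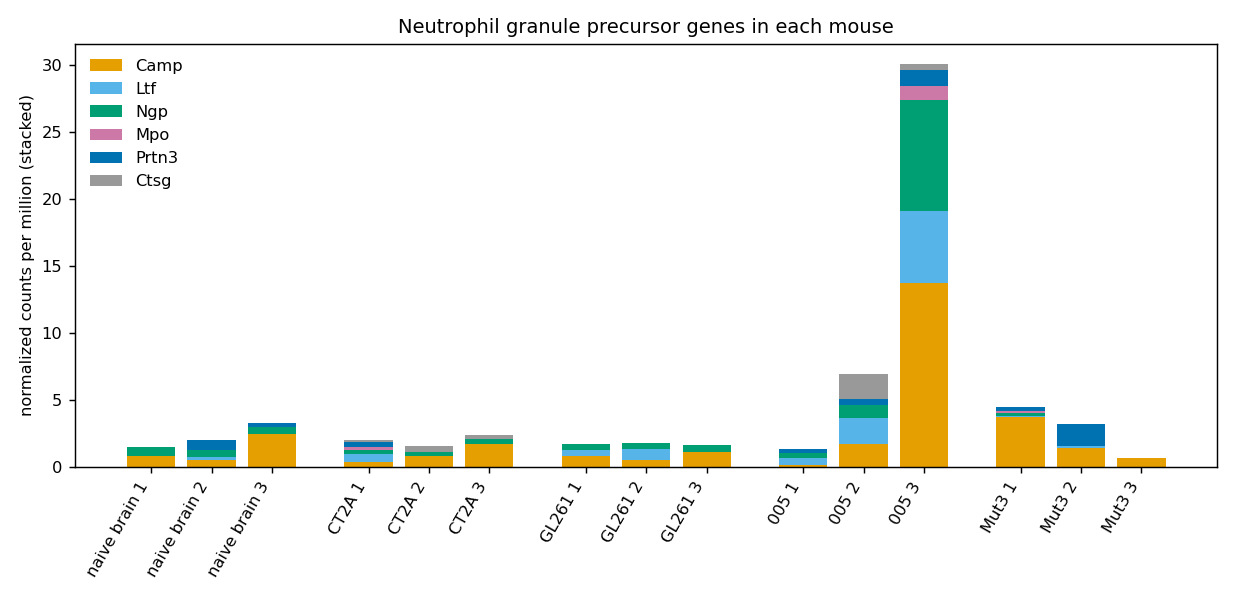
Stacked normalized CPM (y axis) of 6 granule genes of neutrophil precursors in each mouse (x axis, group and replicate). The third 005 mouse reaches 30.1, and every other mouse is at 6.88 or less.

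Lcn2, a secondary granule gene that astrocytes also transcribe in injury, was abundant instead, at 212 to 297 CPM in GL261 and 28.8 to 42.6 CPM in naïve brain. It rose in GL261 (2.84 ± 0.31, edgeR adjusted p = 1e-04) and CT2A (1.11 ± 0.30, adjusted p = 0.0101), and not in 005 (0.18 ± 0.30, adjusted p = 0.689) where S100a8 and Retnlg were highest. Mmp9, a gelatinase of tertiary granules, rose in 005 (2.12 ± 0.66, edgeR adjusted p = 0.0477; 2.46 without the third replicate, adjusted p = 0.00697), and its difference in CT2A was 1.56 ± 0.66 (adjusted p = 0.0698).

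Among 15 genes of circulating and activated neutrophils, many of them shared with monocytes, 11 were tested. CT2A called 7 of them higher (median log2 fold change over the 11 of 3.18, against −0.04 over all tested genes), 005 called 4 (median 3.35 against 0.01), GL261 called 2 (median 2.22 against −0.08) and Mut3 called 1 (median 0.54 against 0.11). The shares of all genes called higher were 19.0%, 11.6%, 14.6% and 17.9% in the same order, so that 2 of 11 in GL261 and 1 of 11 in Mut3 lay near or below the background. In 005, 8 of 12 tested were called higher without the third replicate, against 17.6% of all genes. Clec4d, a C-type lectin receptor of myeloid cells, rose in 005 (5.19 ± 1.12, edgeR adjusted p = 0.00792) and CT2A (3.27 ± 1.09, adjusted p = 0.0275), with 1 of the 005 libraries at 63.6 CPM and the others at 3.71 and 4.13 CPM. Without the third 005 replicate, which was not the highest, it was 5.62 (edgeR adjusted p = 0.000836). Il1r2, the decoy receptor of interleukin 1, rose in CT2A (1.84 ± 0.51, edgeR adjusted p = 0.0119). Lrg1, a secreted granule glycoprotein also made by vessels, did not pass in 005 (3.53 ± 1.23, adjusted p = 0.0735), GL261 (3.50 ± 1.24, adjusted p = 0.0534) or CT2A (3.18 ± 1.24, adjusted p = 0.0516). The single call in Mut3 was G0s2 (4.06 ± 0.65, adjusted p = 0.000604), a lipolysis inhibitor that is not specific to neutrophils, with 23.0 to 47.2 CPM in Mut3 against 0.612 to 2.49 CPM in naïve brain. Cxcr1, the other receptor of these chemokines, had 0 counts in all libraries, which allows up to 0.214 to 0.811 CPM.

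Of 16 further genes of the axis (other ELR chemokines, scavengers and inducers), 11 were tested, and CT2A called 2 higher and 1 lower, GL261 3 higher, 005 2 higher and Mut3 1 higher and 1 lower. Read against the shares of all genes called higher (19.0%, 14.6%, 11.6% and 17.9%) and lower (20.2%, 7.77%, 1.05% and 19.8%), the counts in CT2A and Mut3 were at or below the background. In 005, 4 of 12 were called higher without the third replicate, against 17.6%. Ackr1, the endothelial and red cell scavenger of chemokines, fell in Mut3 (−3.60 ± 0.50, edgeR adjusted p = 0.000284) and CT2A (−1.17 ± 0.45, adjusted p = 0.0478). Il1b, the cytokine that induces ELR chemokines in many cells, differed by 2.53 ± 0.80 in 005, just short of the threshold (2.75 and called without the third 005 replicate, edgeR adjusted p = 0.0178), and by 1.73 ± 0.79 in GL261 and 1.68 ± 0.78 in CT2A (edgeR adjusted p = 0.115 and 0.0968). Zfp36, which degrades chemokine transcripts, did not pass in any tumor (0.20 to 1.48), but was called in 005 without the third replicate (1.67, edgeR adjusted p = 0.0151). Csf2, encoding GM-CSF, did not pass against naïve brain, but between GL261 with 005 and CT2A with Mut3 it was higher in the first pair (2.18 ± 0.55, edgeR adjusted p = 0.0145). No single line of the first pair passed against a line of the second for Csf2 (edgeR adjusted p from 0.0518 to 0.136). Nfkbiz, an inducible NF-kB cofactor picked out after its values were seen, rose in all 4 tumors by 2.06 to 2.66 (edgeR adjusted p from 0.00171 to 0.0195), and by 2.18 in 005 without the third replicate (adjusted p = 0.00718). Csf3, encoding G-CSF itself, had 0 counts in 14 libraries and 1.9 in the third 005 replicate.

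Markers of other cells also differed between the groups, not all in the order of these genes. Monocyte and macrophage markers, 12 genes, summed to 1817 to 11610 CPM in 005, 1213 to 2434 CPM in GL261, 1079 to 1667 CPM in CT2A, 937 to 1797 CPM in Mut3 and 219 to 256 CPM in naïve brain, and 11 of the 12 were called higher in 005, 11 in GL261, 10 in CT2A and 3 in Mut3. In Mut3, Csf1r (−1.15 ± 0.43, edgeR adjusted p = 0.0467) and Itgam (−1.56 ± 0.36, adjusted p = 0.00384) were called lower, so the list went both ways there. The 11 calls in 005 were 11 without the third replicate too, against 17.6% of all genes. In the main fit, 11.6% of all genes were called higher in 005, 14.6% in GL261, 19.0% in CT2A and 17.9% in Mut3. The 3 of 12 in Mut3 were near that share. T cell markers, 5 genes, summed to 51.7 to 295 CPM in 005, 57.4 to 103 CPM in GL261 and 6.15 to 17.2 CPM in Mut3. Mast cell and basophil markers, 5 genes, reached 115 CPM in the highest 005 library and 0 to 0.352 CPM in Mut3. They summed to 8.06 to 13.5 CPM in CT2A and 0.808 to 4.35 CPM in GL261. The monocyte, T cell and mast cell sums were highest in the second 005 replicate. Eosinophil markers, 5 genes, reached 18.9 CPM in the third 005 replicate, which stood apart, while the other 005 libraries had 1.24 and 5.43 CPM, below the 6.06 CPM of the highest CT2A library. Red cell markers, 6 genes, summed to 244 to 282 CPM in GL261 and to 479 to 1665 CPM in naïve brain. GL261 lay below the libraries of every other group, so red cell marker RNA was not equal between groups. Whether it was blood left after perfusion was not tested. Platelet markers, 4 genes that include Pf4, a neighbour of the ligands on chromosome 5, summed to 93.6 to 289 CPM in naïve brain, 53.8 to 110.0 CPM in 005, 42.9 to 52.0 CPM in CT2A, 31.5 to 50.8 CPM in GL261 and 18.5 to 27.9 CPM in Mut3. Gp1bb made up most of the naïve brain sum, at 76.0 to 277 CPM. Pf4 itself went the other way, being called higher in 005 (1.98 ± 0.44, edgeR adjusted p = 0.00889; 2.20 without the third replicate) and CT2A (1.33 ± 0.43, adjusted p = 0.0233), with −0.20 ± 0.43 in Mut3 (adjusted p = 0.738). The part of these cells in the values above was not tested.

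The genes other than members whose log2 CPM over the 15 libraries was most like each member, among 11850 genes, were named by a fixed rule of 2 per member. For Csf3r they were Trem2 (r = 0.93) and Il10ra (r = 0.93), both genes of microglia and macrophages, and for Retnlg they were Cxcr6 (r = 0.92), a T cell chemokine receptor, and Rbm47 (r = 0.92). Rbm47 was also among those of S100a8 (r = 0.85), beside Glycam1 (r = 0.86), while the member Retnlg was closer to S100a8 (r = 0.87). For Cxcr2 they were the unannotated Gm42729 (r = 0.98) and Gon7 (r = 0.95). S100a9 was most like Cfap126 (r = 0.82) and Rmc1 (r = 0.80), Cxcl1 like Gm37716 (r = 0.88) and Gm11434 (r = 0.84), Cxcl2 like Gm16053 (r = 0.91) and Btbd7 (r = 0.90), and Cxcl5 like Cox6a2 (r = 0.92) and Gm17018 (r = 0.89). All these libraries share the differences between groups, and the values carry no test.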

How the data were processed

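RNA from tumor tissue of 12 mice and brain of 3 naïve mice was sequenced from 50 ng per sample. Per the labels, the authors used STAR v2.4.2a with a GENCODE mouse genome for alignment, Picard to mark duplicates and RNA-SeQC for metrics, and the submitters' processing notes name mm10, Salmon and DESeq2 1.18.1. The authors deposited expected counts per gene, not normalized between samples and not necessarily whole, and TPM values, scaled to gene length and to the same total per sample. Which tool made either table is not given in the sources used here. For the 4644 genes with enough counts, count over TPM was a gene factor times a sample factor, so the tables are not independent measurements.

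Symbols came from the GENCODE identifiers (46201 of 46679 matched). After rounding, expected counts entered edgeR 4.0.16 in R 4.3.3 (filterByExpr, TMM, quasi-likelihood test over all 15 samples, no covariate, Benjamini-Hochberg adjustment over all tested genes), and SE is the absolute log2 fold change over the square root of F. Log2 CPM for correlations used a prior count of 2. Replicates are separate mice. The members and gene lists were chosen with earlier results of these data known, and the progenitor list after the Cxcr2 values were seen. Genes named are the 10 members, up to 4 genes of each list with the highest mean TPM, and the 2 genes other than members most correlated with each tested member out of those whose mean log2 CPM reached 3 in some group. Other list genes (Ngp, Mpo, Elane, Prtn3, Ctsg, Cxcr1, Csf3, Nfkbiz and the progenitor genes) were added after their values were seen. The edgeR steps were tested on simulated data first.

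Alternatives were DESeq2 1.42.0, other scalings, other low count filters (none, or 10 counts in every sample), limma 3.58.1 on log2(TPM + 1) and log2(TPM + 0.1), only the samples compared, the replicate number as a block, the adjusted p alone, and leaving out each library. Refitting the gene lists without the third 005 replicate was chosen after seeing the data. Depth sets the precision: 3 counts are the floor, and intervals cover counting error only. One item of the genetic background of the tumor lines is not reported here.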

Additional observations from a re-analysis of the deposited data

Results flagged for a closer look

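Tumors were flagged where a member's change over naïve brain differed between 2 of them in edgeR's direct test, which gave 8 differences. In log2, they were 1.88 for Cxcr2 in CT2A against GL261 (edgeR adjusted p = 0.0273), −2.17 for S100a8 and −3.63 for Retnlg in CT2A against 005 (adjusted p = 0.0482 and 0.0224), and 2.75 for Csf3r and −2.47 for Cxcr2 in GL261 against Mut3 (adjusted p = 0.0224 and 0.00468). For 005 against Mut3 they were 2.87 for S100a8 (adjusted p = 0.00571), 4.45 for Retnlg (adjusted p = 0.0033) and 2.73 for Csf3r (adjusted p = 0.0198). Groups of 3 are too small for a test of single outlying samples.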

How the results depend on the processing

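No called difference of a member changed its direction under any alternative run. Requiring 10 counts in every sample left few members to test and gave 0 called higher in CT2A, 0 in GL261 and 0 in 005, against 1, 2 and 3, with 3 of 8 calls between pairs of tumors, 1 of 4 between GL261 with 005 and CT2A with Mut3, and 2 of 5 in the F test. With limma on log2(TPM + 1), which understates changes of low genes, the calls were 0 in CT2A, 1 in GL261, 0 in Mut3 (against 1), 5 between pairs and 2 between the classes. Fitting only the samples compared gave 1 in 005 and 4 between pairs. Leaving out 1 library gave 0 to 2 called higher in CT2A (0 without the first naïve brain replicate), 0 to 2 in GL261 (0 without that same library), 2 to 4 in 005, 0 to 1 in Mut3 and 5 to 14 between pairs, with 14 when the first 005 replicate and 5 when the second 005 or the first Mut3 replicate was left out; some of these fits also admitted Ly6g or Mmp8. Same-numbered samples of different groups did not deviate together (median r −0.02 over 30 pairs, 1 above 0.1). Of 60 pairs with different numbers, 14 were above 0.1. These values gave no sign that the numbers pair the mice, but with 3 mice per group they cannot exclude it. A replicate block in the fit gave 1 called higher in CT2A, 2 in GL261, 2 in 005, 1 in Mut3, 8 between pairs, 4 between the classes and 4 in the F test. The cause of these differences was not tested. Beside the fits that left out a library, the call of Csf3r in 005 held in 4 of 9 alternatives and that of S100a8 in 005 in 8 of 9. Among these, the adjusted p alone could not lose a call, because it only drops the fold threshold. Depth limits the genes with few counts, among them Mmp8 and Ly6g, which did not pass the filter, and Retnlg, with 2 counts over all of naïve brain.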
